A study of Mus musculus with 22 samples.

Results

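The 7 mouse genes that encode the cyclin-dependent kinase (CDK) inhibitors were followed across 22 RNA-seq libraries of primary neural stem cells from the adult hippocampus. They were taken by gene symbol from both deposited tables, Cdkn1a, Cdkn1b and Cdkn1c of the Cip/Kip family and Cdkn2a, Cdkn2b, Cdkn2c and Cdkn2d of the INK4 family, 7 of the 24411 entries in each table. The series examined what loss of O-GlcNAcylation, in which the enzyme OGT puts an N-acetylglucosamine sugar on proteins inside the cell, does to these cells. All cells grew on poly-D-lysine and laminin in medium with the mitogens EGF and bFGF. In the knockdown arm, 5 libraries (shOgt replicates 1, 2, 3, 5 and 6) came from cells infected for 3 days with a lentivirus encoding a short hairpin RNA against Ogt. The 6 control libraries of that arm (shLuc) had the lentivirus with a luciferase hairpin, so all 11 cultures carried a virus, at 10 particles for each cell. In the inhibitor arm, 5 libraries (OSMI-1 replicates 1, 2, 4, 5 and 6) came from cells given 12.5 µM of the OGT inhibitor OSMI-1 for 24 h, and 6 (vehicle) from cells given the same volume of the solvent DMSO. No genotype, age in months, hairpin sequence or number of animals is given in the sources used here. Whether replicates were separate animals or separate cultures is not in the labels, so the p-values reflect variation between libraries that may be only technical.

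CDK inhibitors are small proteins that stop the kinases driving the cell cycle. The Cip/Kip proteins p21 (Cdkn1a), p27 (Cdkn1b) and p57 (Cdkn1c) bind complexes of a cyclin with its kinase and block mainly Cdk2, whereas the INK4 proteins p16 (Cdkn2a), p15 (Cdkn2b), p18 (Cdkn2c) and p19Ink4d (Cdkn2d) bind Cdk4 and Cdk6 and keep D-type cyclins off them. In the adult hippocampus genes of this group, p57, p21 and p27 among them, are known for holding neural stem cells in quiescence or taking their progeny out of the cycle. The p16 protein is known as a marker of aged and senescent cells.

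The libraries held 9.85 to 13.2 M reads in shLuc, 7.22 to 11.2 M in shOgt, 4.52 to 5.93 M in vehicle and 4.59 to 12.8 M in OSMI-1. OSMI-1 replicate 4 alone lay above 5.93 M reads in its arm, and the totals were recovered from the normalized counts. Ogt itself, the check of the knockdown, lay between 737 and 1003.6 normalized counts in shLuc and between 349 and 524 in shOgt, a log2 fold change of -0.98 ± 0.11 (SE, limma adjusted p = 1.1e-06), which left 50.8% of the control mean. After OSMI-1 its mRNA rose from 455 ± 37.6 (SD, n = 6) to 599.9 ± 42.5 (n = 5). On principal components, shLuc 1, shLuc 3, shOgt 3, vehicle 1 and OSMI-1 5 stood apart from their groups, and OSMI-1 6 also lay away from OSMI-1 1, 2 and 4; counts below are given with and without them where that matters. Of 12 neural stem cell markers, 10 passed the count filter in the knockdown table and 9 in the inhibitor table, with Hes5 and Msi1 under it in both and Prom1 in the latter. Passing the filter asks for few reads and does not name the cells. In shLuc, oligodendrocyte lineage markers summed to 17774 to 20743 normalized counts, astrocyte markers to 6368 to 6908 and neuron markers to 3986 to 4685. Microglia markers summed to at most 42.7 normalized counts in any library and vessel markers to at most 72.0, with Cx3cr1 at 0 in the knockdown table and Aif1 and Cdh5 at 0 in the inhibitor table. In bulk RNA, fewer cells of a type and less RNA for each cell cannot be told apart.

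Promoter sequences for 6 of the 7 genes were found in the RefSeq table (GRCm38.p6), in 9 windows that each run from 250 bases before to 50 bases after an annotated start. The 4 windows of the genes whose groups separated in both arms are printed here, 5′ to 3′ on the strand of the gene, because these are the genes on which the results turn. Capitals mark matches to motifs searched on both strands, and no match printed overlaps another. In the first window of Cdkn1a (chr17:29090729-29091028, + strand), the capitals are a pair of ACATGT copies 4 bases apart, the arrangement of a p53 type site, whose first base lies 49 bases before the start. In its second window (chr17:29093519-29093818, + strand), whose start lies 2790 bases downstream of the first, they are GC boxes (GGGCGG). In Cdkn2b (chr4:89310983-89311282, - strand) they are a cAMP response element (TGACGTCA), 46 bases before the start, and a GC box. In Cdkn2d (chr9:21291160-21291459, - strand) they are a CCAAT box, printed as its reverse complement and 220 bases before the start, and 5 GC boxes, 1 of them on the other strand.
Cdkn1a window 1: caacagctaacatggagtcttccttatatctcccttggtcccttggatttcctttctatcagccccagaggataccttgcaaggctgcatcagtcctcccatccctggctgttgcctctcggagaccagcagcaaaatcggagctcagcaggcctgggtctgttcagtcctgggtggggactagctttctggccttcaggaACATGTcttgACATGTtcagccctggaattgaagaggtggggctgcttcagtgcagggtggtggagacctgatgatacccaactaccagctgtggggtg
Cdkn1a window 2: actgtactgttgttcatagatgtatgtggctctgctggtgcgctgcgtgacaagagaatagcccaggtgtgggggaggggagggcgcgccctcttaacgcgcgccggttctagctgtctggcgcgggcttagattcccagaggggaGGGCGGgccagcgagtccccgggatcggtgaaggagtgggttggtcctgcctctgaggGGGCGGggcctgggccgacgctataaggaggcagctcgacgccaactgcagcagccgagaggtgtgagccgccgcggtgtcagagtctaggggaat
Cdkn2b: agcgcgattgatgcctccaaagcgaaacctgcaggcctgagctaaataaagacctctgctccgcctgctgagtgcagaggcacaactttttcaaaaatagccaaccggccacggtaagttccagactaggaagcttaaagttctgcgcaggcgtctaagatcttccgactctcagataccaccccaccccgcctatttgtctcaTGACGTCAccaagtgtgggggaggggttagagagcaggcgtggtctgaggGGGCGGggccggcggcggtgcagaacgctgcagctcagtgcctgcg
Cdkn2d: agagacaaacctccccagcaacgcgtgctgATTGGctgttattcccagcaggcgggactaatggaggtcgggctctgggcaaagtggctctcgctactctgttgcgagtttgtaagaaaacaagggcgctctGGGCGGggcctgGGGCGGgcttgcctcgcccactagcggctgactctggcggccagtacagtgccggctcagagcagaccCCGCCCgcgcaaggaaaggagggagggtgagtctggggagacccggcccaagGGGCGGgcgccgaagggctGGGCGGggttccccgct

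The pair was searched only as ACATGT, 4 bases and ACATGT, the spelling found in Cdkn1a. That spelling occurs in 4 of the 32851 promoter windows of the table, or 0.0122%, and Cdkn1a holds 1 of them. Other spellings of a p53 type site were not searched. The share is therefore not that of p53 type sites, and it cannot be set beside those of the shorter motifs. TGACGTCA occurs in 1.79% of windows, GGGCGG in 35.7% and CCAAT in 37.4%, so the boxes in Cdkn2d are common letters and the element in Cdkn2b an uncommon one. Of the other motifs searched, an E2F site (TTTCCCGC, 1.07% of windows) was present in the first window of Cdkn2a, and neither a forkhead site (GTAAACA, 3.65%) nor a palindromic SMAD site (GTCTAGAC, 0.213%) was in any window of these genes. The windows of Cdkn2d and Cdkn2b hold 66.3% and 57.7% G and C, those of Cdkn1a 54.7% and 64.7%, beside a median of 52.7% over all windows. These matches describe letters only, and no binding was measured.

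Cdkn1a rose to 1.43 times its control in both arms, Cdkn2b rose in both and more after knockdown, and Cdkn2d fell in both. In the knockdown arm 2 of the 6 testable genes rose and 1 fell, where 15.4% of all 12136 genes tested rose and 16.4% fell (31.8% in all). In the inhibitor arm 2 rose (Cdkn1a and Cdkn2b) and 2 fell (Cdkn1b and Cdkn2d), where 11.6% of 11349 genes rose and 13.2% fell (24.8% in all). Calls are limma adjusted p-values under 0.05 on log2(normalized count + 1), adjusted over all genes tested in a table, and a fold change on that scale understates changes of low counts. The median log2 fold change of the 6 genes was 0.19 after knockdown and -0.36 after OSMI-1, beside 0.01 and 0.00 over all genes tested. Leaving out the libraries that stood apart gave the same 3 and 4 calls, with or without OSMI-1 6 among them.

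Cdkn1a encodes p21, the inhibitor that p53 switches on. In shLuc replicates 1 to 6 its normalized counts were 14857, 11860, 15185, 13859, 13532 and 12895. In shOgt replicates 1, 2, 3, 5 and 6 they were 19783, 19209, 21366, 18736 and 18761. Every shOgt library thus lay above every shLuc library, as was the case for 8.83% of all genes tested in that direction. The means were 13698 ± 1236 (SD, n = 6) and 19571 ± 1090.2 (n = 5), a log2 fold change of 0.52 ± 0.06 (SE; limma adjusted p = 5.2e-06), or 1.43 times the control.

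In the vehicle libraries, replicates 1 to 6, Cdkn1a had 6228, 5883, 6008, 6759, 6325 and 6708 normalized counts. In OSMI-1 replicates 1, 2, 4, 5 and 6 it had 9230.2, 9068, 8813, 9064 and 9011. The groups again did not overlap, which held for 6.27% of all genes with the treated group higher, and the OSMI-1 libraries lay within a narrow band. From 6319 ± 358 (n = 6) to 9037 ± 150.0 (n = 5), the log2 fold change was 0.52 ± 0.06 (limma adjusted p = 4.1e-07), again 1.43 times the control. The difference between the arms, tested as an interaction in 1 limma fit of all 4 groups, was 0.00 ± 0.08 with a 95% interval from -0.17 to 0.17. Each library held at least 5292 reads of Cdkn1a, which has the most reads of the 7 genes. Its exons are overlapped by a transcript on the opposite strand, and whether counting used strand is not given in the sources used here, so reads of the pair cannot be told apart.

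**Figure D1:**
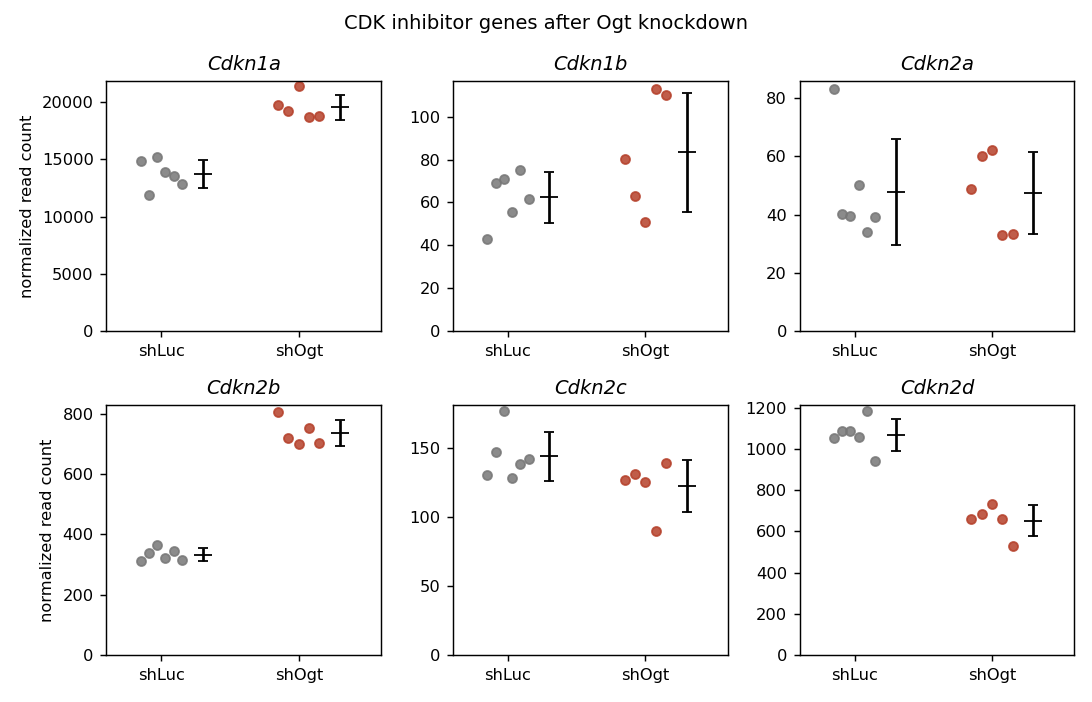
Normalized read count (y axis, from 0) of 6 CDK inhibitor genes in each shLuc (grey, n = 6) and shOgt (red, n = 5) library, with the mean and SD as black bars beside the points. The shOgt points of Cdkn1a and Cdkn2b lie above all shLuc points and those of Cdkn2d below them; Cdkn1c, with 1 read in all, is not drawn.

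Cdkn1b encodes p27, whose protein is controlled to a large extent by degradation. Its normalized counts in shLuc replicates 1 to 6 were 42.9, 69.0, 70.9, 55.4, 75.0 and 61.5. In shOgt replicates 1, 2, 3, 5 and 6 they were 80.0, 63.1, 50.8, 113 and 110.3. Only 3 of the 5 shOgt libraries exceeded all controls, and shOgt 3 lay below 5 of the 6. The log2 fold change, 0.37 ± 0.24, had an interval from -0.13 to 0.87 and did not pass (limma adjusted p = 0.26), with 36 to 106 reads behind each value.

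After OSMI-1 the order was the opposite. Vehicle replicates 1 to 6 had 136, 182, 193, 254, 171 and 199 normalized counts of Cdkn1b, and OSMI-1 replicates 1, 2, 4, 5 and 6 had 148, 146, 123, 147 and 123. The groups overlapped through vehicle 1, with 2 of 5 OSMI-1 libraries below all controls. Cdkn1b fell from a mean of 189 ± 38.9 (n = 6) to one of 137 ± 13.1 (n = 5), and the log2 fold change was -0.44 ± 0.14 (limma adjusted p = 0.022). This call was lost without vehicle 4 (adjusted p = 0.071), OSMI-1 4 (0.054) or OSMI-1 6 (0.054). In the authors' deposited table the change of Cdkn1b passes, with an adjusted p of 0.010 and a log2 fold change of 0.47 written as vehicle over OSMI-1.

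Cdkn1c, the gene of p57 and an imprinted gene, was not detected. It had 1 read in 11 knockdown arm libraries, in shLuc 3, and 0 reads in 11 inhibitor arm libraries, and it was the member that did not pass the count filter. With so few reads no test between groups was informative. The limit that a count of 0 allows is 3 reads in a library, for counting error only. It was 0.248 to 0.415 reads per M reads (knockdown, without shLuc 3) and 0.235 to 0.663 (inhibitor). Its neighbours in the imprinted domain were measured. Of 8, 4 were testable, and after knockdown Tssc4 and Nap1l4 fell (1971 to 1329 and 5338 to 4534 mean normalized counts; median of the 4, -0.16), 2 of 4 where 16.4% of all genes fell. After OSMI-1, Kcnq1ot1, the long RNA that silences the domain on the paternal chromosome, rose from 255 ± 43.2 to 449 ± 100.5 (log2 0.80 ± 0.13, limma adjusted p = 7.4e-05). Cd81 and Tssc4 rose with it (0.39 ± 0.07 and 0.29 ± 0.08), 3 of 4 where 11.6% of all genes rose, with a median of 0.34 over the 4.

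Cdkn2b encodes p15, the INK4 inhibitor known for its induction by TGF-β. In shLuc replicates 1 to 6 it had 310.4, 337, 366, 322, 345 and 317 normalized counts. In shOgt replicates 1, 2, 3, 5 and 6 it had 806, 721, 702, 752 and 702. The lowest shOgt value, 702, was far above the highest shLuc value, 366. The means were 333 ± 20.9 (n = 6) and 737 ± 43.8 (n = 5), a log2 fold change of 1.14 ± 0.09 with an interval from 0.96 to 1.33 (limma adjusted p = 2.0e-08), or 2.21 times the control. This was the largest change among the 6 testable genes in either arm.

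In vehicle replicates 1 to 6 Cdkn2b had 160.3, 179, 199, 236, 218 and 239 normalized counts, and in OSMI-1 replicates 1, 2, 4, 5 and 6 it had 276, 339, 321, 263 and 259. The groups did not overlap, although vehicle 6 and OSMI-1 6 lay close together. The mean rose from 205 ± 31.6 to 292 ± 36.2, a log2 fold change of 0.51 ± 0.12 (limma adjusted p = 0.0029), 1.42 times the control. The rise after knockdown exceeded that after OSMI-1 by 0.63 ± 0.15 (interval 0.33 to 0.94, interaction adjusted p = 0.0020).

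Cdkn2d encodes p19Ink4d and was the member that fell in both arms. Its normalized counts were 1053, 1088, 1088, 1061, 1183 and 941 in shLuc replicates 1 to 6. They were 660, 683, 734, 658 and 527 in shOgt replicates 1, 2, 3, 5 and 6. No shOgt library reached the lowest shLuc value, a separation that 9.96% of all genes tested showed with the treated group lower. From 1069 ± 78.3 (n = 6) to 652 ± 76.3 (n = 5), Cdkn2d fell by 0.72 on the log2 scale (SE 0.09, limma adjusted p = 7.3e-06), to 0.609 of the control.

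In vehicle replicates 1 to 6 Cdkn2d had 354, 435, 344, 359, 354 and 408 normalized counts, and in OSMI-1 replicates 1, 2, 4, 5 and 6 it had 268, 303, 297, 299.5 and 277. All OSMI-1 libraries lay below all vehicle libraries, as for 7.71% of all genes. The mean of 376 ± 36.6 in vehicle became 289 ± 15.5, with a log2 fold change of -0.37 ± 0.09 (limma adjusted p = 0.0042), to 0.772 of the control. The fall after knockdown was larger by 0.34 on the log2 scale (difference -0.34 ± 0.13, interval -0.60 to -0.09, adjusted p = 0.046), but this call was lost in 16 of 22 fits with 1 library left out, with adjusted p up to 0.11 without shOgt 6.

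**Figure D2:**
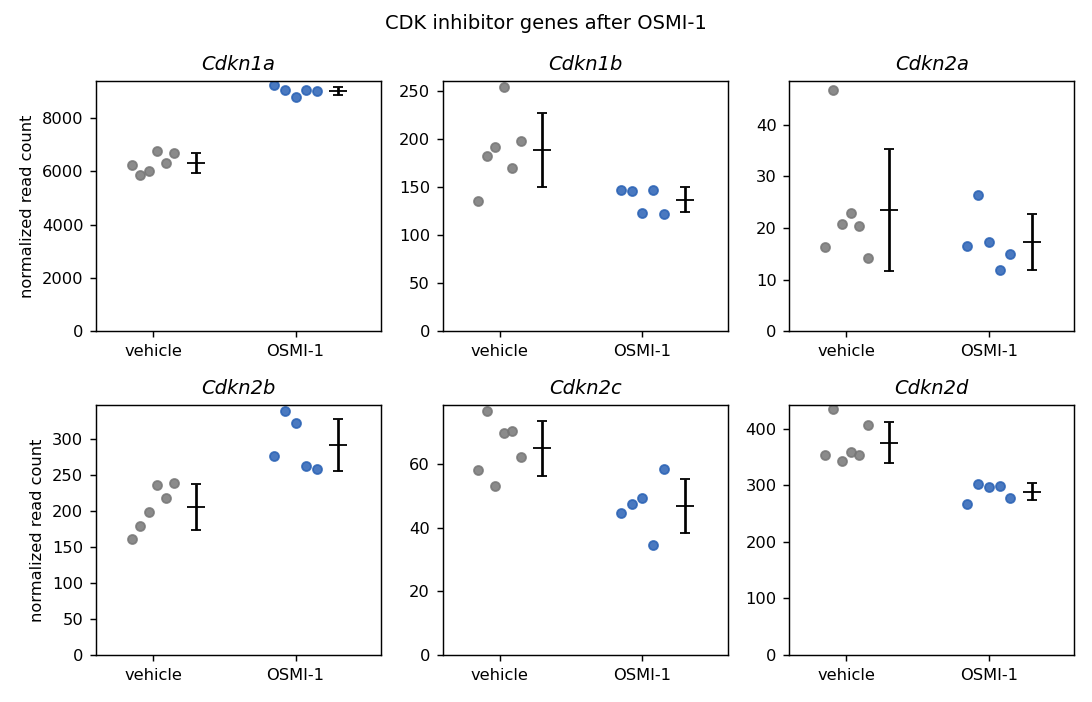
Normalized read count (y axis, from 0) of the same 6 genes in each vehicle (grey, n = 6) and OSMI-1 (blue, n = 5) library, with the mean and SD as black bars beside the points. OSMI-1 points lie above all vehicle points for Cdkn1a and Cdkn2b and below them for Cdkn2d, while those of Cdkn1b overlap.

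Cdkn2c, the gene of p18, was low and did not pass in either arm. It had 129 to 177 normalized counts in shLuc (median 140.3) and 127, 131, 126, 89.6 and 139 in shOgt replicates 1, 2, 3, 5 and 6. Of these, 3 of 5 lay below all controls, and the log2 fold change was -0.24 ± 0.16 (interval -0.57 to 0.09, limma adjusted p = 0.27). After OSMI-1 the values were 44.7, 47.6, 49.5, 34.6 and 58.4, beside 53.3 to 76.7 in vehicle (median 66.0). There 4 of 5 lay below all controls, with a log2 fold change of -0.47 ± 0.19 and an adjusted p of 0.066. Of 22 other settings, 2 brought it under the threshold: 0.045 without OSMI-1 6 and 0.029 without the intensity trend in the limma fit. In the rest it did not pass, with a limma adjusted p of up to 0.17 (without OSMI-1 5).

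Cdkn2a encodes p16Ink4a and, from another first exon, p19Arf, and a value for the gene does not separate these products. It had 34.2 to 83.2 normalized counts in shLuc (median 39.7) and 48.9, 60.2, 62.1, 33.1 and 33.3 in shOgt, with a log2 fold change of 0.01 ± 0.28 (limma adjusted p = 0.98). In the inhibitor arm it had 14.1 to 46.7 in vehicle (median 20.5) and 16.4, 26.4, 17.2, 11.9 and 14.9 in OSMI-1, with a log2 fold change of -0.35 ± 0.32 (adjusted p = 0.46). The groups overlapped in both arms. With 10 to 93 reads for each value, the intervals ran from -0.57 to 0.59 and from -1.02 to 0.32, so changes inside these bounds remain possible.

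The neighbours Cdkn2a and Cdkn2b gave different calls. Both lie on the minus strand of chromosome 4 (GENCODE M21, GRCm38, chr4:89274471-89294653 and chr4:89306299-89311039), with 11645 bases between them. Cdkn2b passed the test in both arms and Cdkn2a in neither, and the difference between the genes was not tested. Cdkn2c lies on the same chromosome (chr4:109660876-109667189), Cdkn1a on chromosome 17 (chr17:29090976-29100727), Cdkn1b on chromosome 6 (chr6:134920401-134925513), Cdkn1c on chromosome 7 (chr7:143458339-143461050) and Cdkn2d on chromosome 9 (chr9:21288410-21291407).

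**Figure D3:**
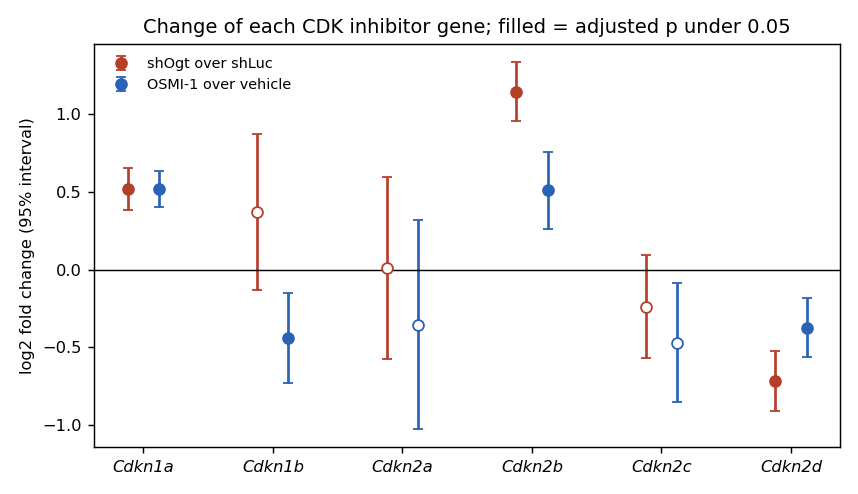
Log2 fold change (y axis, with its 95% interval) of each testable CDK inhibitor gene for shOgt over shLuc (red) and OSMI-1 over vehicle (blue), filled where the limma adjusted p was under 0.05. Cdkn1a lies at 0.52 in both arms, Cdkn2b at 1.14 and 0.51, Cdkn2d at -0.72 and -0.37, and Cdkn1b on opposite sides of 0.

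Between the arms, 3 of the 6 genes differed by the interaction test, beside 22.9% of the 11269 genes tested in both tables. These were Cdkn2b and Cdkn2d, described above, and Cdkn1b, whose change after knockdown exceeded that after OSMI-1 by 0.81 ± 0.27 (interval 0.26 to 1.36, limma adjusted p = 0.029). The Cdkn1b difference was lost without shOgt 5 (adjusted p = 0.067), shOgt 6 (0.065), vehicle 4 (0.060) or OSMI-1 6 (0.050). Without shOgt 5, shOgt 6 or vehicle 4 the count of differing genes was 1, with Cdkn2b left, and without the libraries that stood apart it was 2, with Cdkn2d no longer called (adjusted p = 0.072). Cdkn2c and Cdkn2a gave differences of 0.23 ± 0.23 and 0.36 ± 0.43 with adjusted p of 0.51 and 0.59. Rn45s, the precursor of ribosomal RNA, made up 0.921 to 1.25% of each knockdown arm library and 4.81 to 14.2% of each inhibitor arm library. The arms also differ in agent, in duration and in the use of a virus. These differences cannot be told apart, and their part in the interaction results was not tested.

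Divided by exon length, Cdkn1a stood far above its relatives in every group. In shLuc its level was 3855 ± 348 normalized counts per kilobase of exon (n = 6), followed by Cdkn2d with 679 ± 49.8, Cdkn2b with 239 ± 15.01, Cdkn2c with 53.6 ± 6.59, Cdkn2a with 40.7 ± 15.5 and Cdkn1b with 13.7 ± 2.60. Neighbours in this order did not overlap except Cdkn2c and Cdkn2a, which overlapped in all 4 groups. In vehicle the order was Cdkn1a (1778 ± 101), Cdkn2d (239 ± 23.3), Cdkn2b (148 ± 22.7), Cdkn1b (41.5 ± 8.55), Cdkn2c (24.2) and Cdkn2a (20.1). With the longest transcript in place of all exons, Cdkn1a came to 6586 in shLuc and the order by mean changed only for Cdkn2c and Cdkn2a, in shOgt and OSMI-1.

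In both arms the treated groups had another order, with Cdkn2b above Cdkn2d, both next after Cdkn1a. After knockdown Cdkn2b stood at 529.9 ± 31.5 per kilobase and Cdkn2d at 415 ± 48.5, without overlap. After OSMI-1 they stood at 209.7 ± 26.1 and 184 ± 9.85, with overlap. Within a library, the ratio of Cdkn2b to Cdkn2d per kilobase was 0.331 to 0.381 in shLuc and 1.08 to 1.51 in shOgt. It was 0.4663 to 0.744 in vehicle and 0.993 to 1.26 in OSMI-1. The groups of each arm did not overlap in this ratio. That follows from the opposite separations of the 2 genes given above and is no further result. Whether the ratio passed 1 depended on the length used. It was above 1 in 5 of 5 shOgt and 4 of 5 OSMI-1 libraries by all exons, and in 4 of 5 and 3 of 5 by the longest transcript, where the ranges were 0.978 to 1.36 and 0.897 to 1.14. By that length Cdkn2b and Cdkn2d also overlapped in shOgt (lowest Cdkn2b 505, highest Cdkn2d 516 per kilobase). In control libraries the ratio was below 1 by either length.

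**Figure D4:**
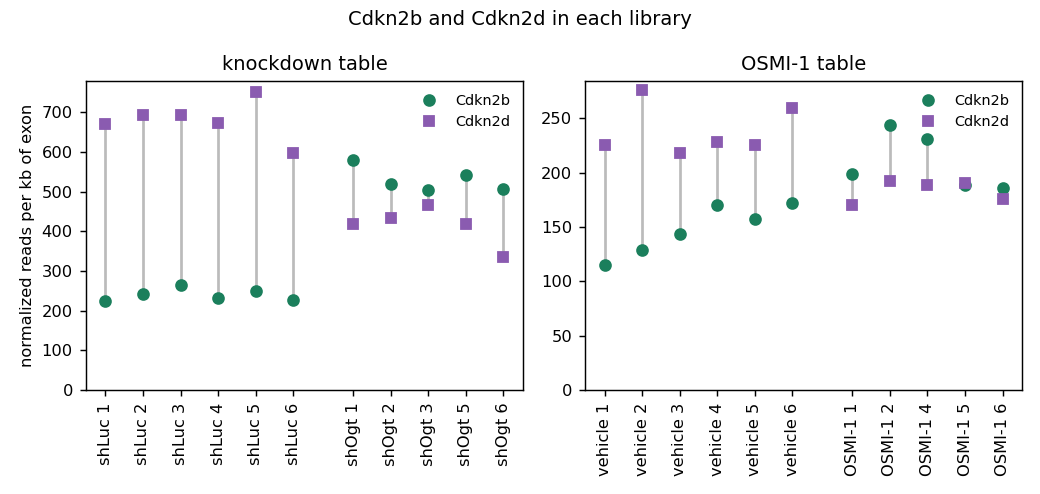
Normalized reads per kilobase of exon (y axis, from 0) of Cdkn2b (green circles) and Cdkn2d (purple squares) in each library, joined by a line, for the knockdown table (left) and the inhibitor table (right). With lengths from all exons, Cdkn2d lies above Cdkn2b in all control libraries, and Cdkn2b lies above Cdkn2d in all treated libraries but OSMI-1 5, where the points nearly coincide.

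Summed over the 7 genes per kilobase, Cdkn1a made up 78.9 ± 1.596% of the total in shLuc and 84.0 ± 0.723% in shOgt, and 79.0 ± 1.57% in vehicle and 84.8 ± 1.13% in OSMI-1. The INK4 genes together made up 20.8 ± 1.55% in shLuc, 15.7 ± 0.722% in shOgt, 19.1 ± 1.47% in vehicle and 14.2 ± 1.15% in OSMI-1. The share of p21 mRNA was therefore higher in the treated than in the control group of each arm, although Cdkn2b also rose. These percentages use all exons and depend on that length. By the longest transcript Cdkn1a came to 6586 per kilobase in shLuc in place of 3855, and shares by that length were not computed.

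Several kinases and cyclins that these inhibitors act on fell. Of 13 genes for kinases, cyclins and pocket proteins, 6 fell and 2 rose after knockdown (median log2 fold change -0.52) and 7 fell and 3 rose after OSMI-1 (median -0.54). Beside these counts, 16.4% of all genes fell and 15.4% rose after knockdown, and 13.2% fell and 11.6% rose after OSMI-1. Cyclin A2 (Ccna2), the partner of Cdk2 and Cdk1 in S and G2 phase, fell from 1826 ± 272 to 909 ± 84.9 after knockdown (log2 -0.996 ± 0.10, limma adjusted p = 5.4e-07). After OSMI-1 it fell from 1444 ± 102 to 474 ± 40.4 (log2 -1.61 ± 0.08, adjusted p = 5.5e-13). Cdk1, the mitotic kinase, fell by 0.67 and 1.38 on the log2 scale. Cdk2, the main Cip/Kip target, fell from 1922 to 1289.9 normalized counts after knockdown and from 719 to 496 after OSMI-1. The Cdk2 partner Ccne1 fell from 987 to 686 and from 506 to 329. The D-type cyclins, which INK4 proteins keep from their kinases, were among the genes that rose: Ccnd2 and Ccnd3 after knockdown (0.36 and 0.24), and Ccnd1 and Ccnd2 after OSMI-1 (0.18 and 0.29) together with the pocket protein gene Rbl2 (0.51), all named after their values were seen. Ccnd3 fell after OSMI-1, by 0.42.

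Many genes on a list of p53 and its targets, which leaves out Cdkn1a, rose in both arms. After knockdown 11 of 15 rose and none fell in limma (11 and 0 also in edgeR), with a median log2 fold change of 0.54. Btg2, an antiproliferative gene, rose from 406 ± 33.2 to 1673 ± 181, Mdm2, the ligase that degrades p53, by 0.65 ± 0.08, and Sesn1, a stress sensor of amino acid signalling, by 0.64 ± 0.10 on the log2 scale. After OSMI-1, 7 of 14 rose and none fell (7 and 0 also in edgeR), with a median of 0.29. Btg2 rose from 369 ± 16.2 to 541 ± 40.3 (0.55 ± 0.08), Sesn2 by 0.51 ± 0.08 and Mdm2 by 0.46 ± 0.07. Beside 15.4% and 11.6% of all genes that rose, these shares were 73.3% and 50%.

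Upstream activators other than p53, such as forkhead and SMAD factors, mostly did not pass. Of 13 testable genes, 1 rose after knockdown, Klf6, a zinc-finger activator of Cdkn1a, from 923 ± 63.7 to 1446 ± 146 (0.64 ± 0.08, limma adjusted p = 7.1e-06). After OSMI-1 Klf6 rose (0.37 ± 0.08), as did the ligand gene Tgfb2 (0.35 ± 0.09), and Tcf3, an E-protein gene, fell (-0.41 ± 0.14). The shares called were 7.69% after knockdown and 23.1% after OSMI-1, beside 31.8% and 24.8% of all genes, and the medians were -0.07 and 0.17.

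The list of repressors of these loci held Polycomb and Id genes together with genes of the Myc, Hes, Tbx and Twist families. Of its testable genes, 2 of 12 rose and 1 fell after knockdown by limma, and 1 rose and 2 fell by edgeR. The Polycomb gene Cbx8 rose from 201 ± 25.3 to 334 ± 37.7, Id2 fell from 179.6 ± 24.1 to 109 ± 14.9, and Id1 was called higher at the edge of the threshold (0.34 ± 0.13, limma adjusted p = 0.047). After OSMI-1, 4 of 13 fell and none rose in limma or in edgeR: Ezh2, the Polycomb methyltransferase, from 169 ± 29.9 to 92.2 ± 7.72, its partner Eed by 0.51 (named after its values were seen), Id1 by 0.71 and Id3 by 0.32 on the log2 scale. The shares called, 25% and 30.8%, lay near the 31.8% and 24.8% of all genes, and the medians were 0.04 and -0.11.

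Of 16 genes for the turnover and binding of the inhibitor proteins, 5 fell and 2 rose after knockdown (1 rose by edgeR), and 5 fell and 1 rose after OSMI-1, with medians of -0.07 and -0.05. These were 43.8% and 37.5% of the list, beside 31.8% and 24.8% of all genes called. Skp2, which marks p27 and p21 for degradation, fell from 808 ± 30.0 to 444 ± 16.2 and from 476 ± 64.7 to 253 ± 37.9 (log2 -0.86 ± 0.08 and -0.91 ± 0.11). Pcna and Dtl, which carry p21 to its replication-linked degradation, fell by 0.82 and 0.85 after knockdown and by 0.43 and 0.89 after OSMI-1. Cks1b, the Skp2 cofactor for p27, and Cdkn2aipnl fell by 0.87 and 0.69 after OSMI-1. Neither was called after knockdown (-0.09 and -0.08). Protein levels were not measured.

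**Figure D5:**
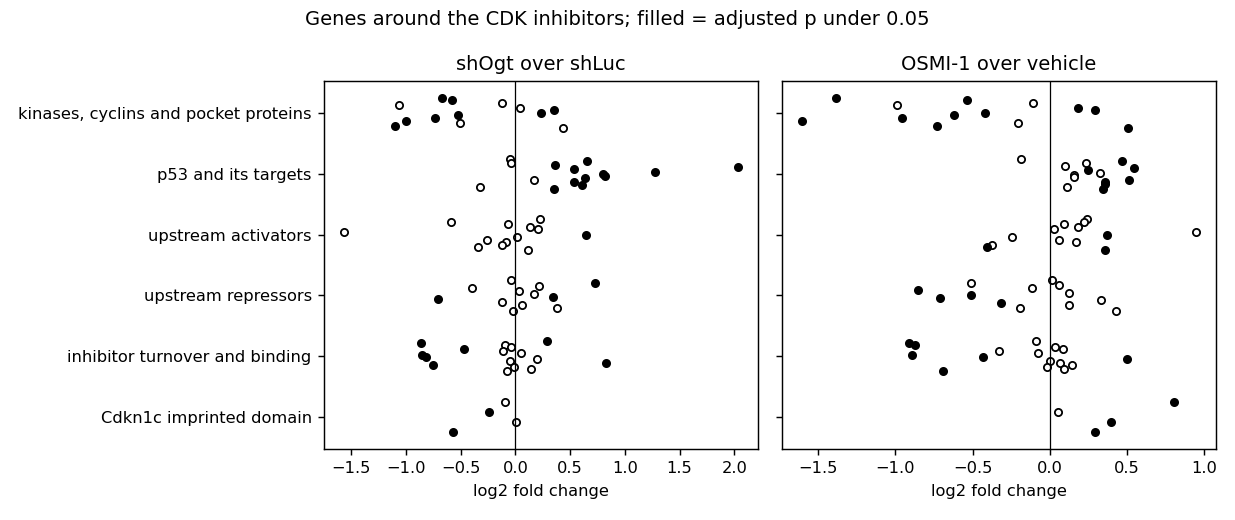
Log2 fold change (x axis) of each testable gene in 6 lists around the CDK inhibitors, for shOgt over shLuc (left) and OSMI-1 over vehicle (right), filled where the limma adjusted p was under 0.05. In the row of p53 and its targets, 11 filled points lie right of 0 after knockdown and 7 after OSMI-1, and no filled point lies left of it.

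Markers of other cell types moved as well, and their part in these results was not tested. Beside the counts that follow, 31.8% of all genes were called after knockdown and 24.8% after OSMI-1. After knockdown the 7 oligodendrocyte lineage markers summed to 10014 to 11543 normalized counts beside 17774 to 20743 in shLuc, with 3 of 4 testable genes lower; after OSMI-1 their sums overlapped (10943 to 14661 beside 9716 to 12283), with 1 of 5 higher and 1 lower. The 7 neuron markers summed to 3317 to 3650 beside 3986 to 4685, with 1 of 4 higher and 2 lower, and overlapped after OSMI-1 (2206 to 3073 beside 1946 to 2396), again with 1 of 4 higher and 2 lower. After OSMI-1 the 12 neural stem cell markers summed to 22964 to 24917 beside 28777 to 33503, with 1 of 9 higher and 5 lower. After knockdown those sums overlapped (54277 to 63027 beside 52119 to 54755), with 2 of 10 higher and 2 lower. The 6 ependymal and choroid plexus markers summed to 62.05 to 105.7 after OSMI-1 beside 125 to 197 in vehicle, with the 1 testable gene lower, and overlapped after knockdown (157 to 241 beside 86.8 to 199), where 2 of 3 testable genes were higher. Summed astrocyte markers overlapped between the groups of both arms, with 0 of 5 genes called after knockdown, and 2 of 4 higher and 1 lower after OSMI-1. Of the vessel markers Tek was called higher after knockdown by limma and not by edgeR.

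None of the 7 genes holds AACATGC in an annotated 3′UTR, a sequence carried by 9.80% of 21144 genes (GENCODE M21). After knockdown 27.1% of 1342 tested genes with it were lower, beside 15.5% of 10012 without it, and after OSMI-1 10.99% of 1292 and 13.7% of 9408. The sequence was picked out earlier from the genes with the largest falls in the same libraries, so the knockdown shares are no independent test. Whether the hairpin acted on these genes, directly or through other genes, was not tested.

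The genes whose levels ran most nearly parallel to those of the called inhibitors were found by the root mean square difference of centred log2 values over the 11 libraries of a table. In the knockdown table the nearest to Cdkn1a of 8459 genes were Clic1 (0.0583), Sin3b (0.0625) and Ralb (0.0703). Nearest to Cdkn2b were Prune2 (0.0974), Ehd4 (0.105) and Dera (0.108). Cdk2 was among the nearest to Cdkn2d (0.0951), after Cnpy3 (0.0822) and before Umps (0.107), so the transcript of a Cip/Kip target kinase ran close to that of an INK4 inhibitor. In the inhibitor table, among 7069 genes, the nearest were Ctsb (0.0595), Hsd17b7 (0.0626) and Pcyt2 (0.0640) for Cdkn1a and Hagh (0.0743), Slc20a2 (0.107) and Bin3 (0.117) for Cdkn2b. Cars (0.0946), Plvap (0.0949) and Eif3i (0.0953) were nearest to Cdkn2d. For Cdkn1b the nearest, Agtrap (0.139), Mycbp (0.157) and Pgrmc1 (0.159), were farther off. No gene was near an inhibitor in both tables among these lists, and the likeness is a description that includes the difference between the groups.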

How the data were processed

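RNA was sequenced in 22 libraries, grouped by the sample labels (6 shLuc, 5 shOgt, 6 vehicle, 5 OSMI-1). STAR, RSEM and DESeq2 are named, without versions, in the submitters' processing notes, which give a human build for tables of mouse symbols, so coordinates here are those of GENCODE M21 and RefSeq for mouse. The labels' protocol names strand-specific poly(A) libraries and the series' design text Smart-Seq2, which was not settled. Per the file headers, each of the authors' 2 deposited tables holds normalized counts per library (a signal, each count over its library's DESeq2 size factor), a log2 fold change and standard error, a score (Wald statistic) and p-values. The authors' deposited log2 fold change puts shOgt over shLuc for the knockdown but vehicle over OSMI-1 for the inhibitor; folds computed here put the treated group over its control. Per library, values are whole multiples of a step (100% within 0.001 of a whole number), which gave the reads back.

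The tables hold normalized counts, so log2(normalized count + 1) was fitted with limma 3.58.1 (R 4.3.3) within each table, with an intensity trend and no covariates. Low genes were removed with filterByExpr of edgeR, at a minimum count of 10 and a minimum total of 15 reads. P-values were two-sided and Benjamini-Hochberg adjusted over the table, with calls at 0.05. Differences between arms were an interaction contrast over genes tested in both tables. Standard deviations are over libraries and ± after a log2 fold change is its standard error. Alternatives were edgeR 4.0.16's quasi-likelihood test and DESeq2 1.42.0 on the recovered reads, TMM scaling, pseudocounts of 0.5 and 5, no filter, a mean of at least 50, no intensity trend, a replicate block and leaving out each library. Leaving out together the libraries that stood apart, and the longest transcript for the ratio of Cdkn2b to Cdkn2d, were chosen after seeing the data.

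The genes and lists were chosen with earlier results of these data known. The text names all 7 genes, Ogt, up to 3 called genes with the smallest p for each list and comparison, and for each called inhibitor the 3 nearest genes by root mean square difference among tested genes with a mean of at least 100 normalized counts. Levels per kilobase use the union of GENCODE M21 exons. The tables were normalized separately, so levels were compared within a table.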

Additional observations from a re-analysis of the deposited data

Results flagged for a closer look

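Of 24 groups checked (6 genes in 4 groups), 3 held a library far from the others, where chance picks out about 1 group in 20. Cdkn2a had 83.2 normalized counts in shLuc 1, beside 50.2 in the next library and 34.2 in the lowest. Without shLuc 1 its log2 fold change after knockdown was 0.18 (limma adjusted p = 0.64). Cdkn2a had 46.7 normalized counts in vehicle 2, beside 22.9 in the next and 14.1 in the lowest, and without vehicle 2 its log2 fold change after OSMI-1 was -0.14 (limma adjusted p = 0.79). Cdkn2c had 89.6 normalized counts in shOgt 5, where the next library had 126 and the highest 139, and without shOgt 5 its log2 fold change was -0.13 (limma adjusted p = 0.57).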

How the results depend on the processing

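Across 21 settings for the knockdown and 22 for OSMI-1, Cdkn1a, Cdkn2b and Cdkn2d kept their direction and their call in both arms, with adjusted p of at most 0.00098, 5.6e-06 and 0.00035 in the knockdown arm and 0.00032, 0.014 and 0.015 in the inhibitor arm. The count of genes called after knockdown was 3 in every setting. After OSMI-1 it ran from 3 to 5, and from 3 to 4 with 1 library left out. The count differing between the arms ran from 1 to 3 with 1 library left out, and was 1 with the replicate block and 2 without the 5 libraries that stood apart, also with OSMI-1 6 left out as well. With the replicate block, Cdkn1b lost its call after OSMI-1 (adjusted p = 0.061) and Cdkn1b and Cdkn2d lost theirs between the arms (0.062 and 0.079); it changed no other call. Few same-numbered libraries were alike: 1 of 5 pairs in the knockdown arm and 0 of 5 in the inhibitor arm had deviations correlated above 0.1. The correlations were -0.0086 to 0.16 and -0.099 to 0.051. The highest was that of shLuc 3 and shOgt 3, which also lay together on the third principal component (33.6 and 34.0). Weak correlations cannot exclude that the libraries were paired. The Cdkn2d difference was also lost without a filter (adjusted p = 0.051) and without the libraries that stood apart (0.072). Reads for each value were fewest for Cdkn2a (10 to 93), Cdkn2c (29 to 225) and Cdkn1b (36 to 286) among the testable genes. No called fold change reversed its sign. The cause of the lost calls was not tested.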

Other observations

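The control groups of the arms differed in the makeup of their CDK inhibitor transcripts. Of the summed level per kilobase within a library, Cdkn1b took 0.181 to 0.347% in shLuc and 1.38 to 2.33% in vehicle. Cdkn1b stood below Cdkn2c and Cdkn2a in shLuc and above both in vehicle. Cdkn2b relative to Cdkn2d was 0.353 ± 0.0225 (SD, n = 6) in shLuc and 0.623 ± 0.109 (n = 6) in vehicle, without overlap. Cdkn1a took similar shares, 76.3 to 80.4% and 76.3 to 81.2%. These are shares within libraries of separately normalized tables and were not tested. Library makeup differed too: Rn45s, the precursor of ribosomal RNA, accounted for 0.938 to 1.25% in shLuc and 4.81 to 14.2% in vehicle. Virus, culture, depth and the Rn45s share differ between the control groups and cannot be told apart.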
